A study of Mus musculus with 8 samples.

Results

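The genes described here encode the subunits of the mitochondrial respiratory chain and ATP synthase, together with a few assembly factors that share their symbols' first letters. They were chosen by name: a gene was taken when its symbol begins with Nduf, Sdh, Uqcr, Cox4, Cox5, Cox6, Cox7, Cox8 or Atp5. On the array 160 probe sets carried such a symbol, and they named 87 of the 12393 genes measured. Each gene is given by its probe set with the highest mean over the 8 arrays. Complex I had 39 genes, complex II 7, complex III 8, complex IV 16 and complex V 17. By function, 78 of the 87 encode subunits and 9 encode assembly factors (Ndufaf1, Ndufaf3, Ndufaf4, Ndufaf5, Ndufaf7, Sdhaf1, Sdhaf2, Sdhaf4 and Cox7a2l), so the name covers slightly more than the subunits. No measured value entered the choice.

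The tissue was right hippocampus from 8 mice, a model of mucopolysaccharidosis VII whose strain is labelled B6.C-H2-Kbm1/ByBir. In this lysosomal storage disease the enzyme beta-glucuronidase, encoded by Gusb, is lacking and glycosaminoglycans accumulate in lysosomes. The 4 mutant mice were mps/mps at Gusb. The 4 normal mice were mps/+, so every animal carried at least 1 mutant copy and no mouse with 2 intact copies was compared. The normal mice were a female of 38.3 weeks (normal 1), a male of 25.6 weeks (normal 2), a male of 19.6 weeks (normal 3) and a female of 14.6 weeks (normal 4). The mutant mice were a female of 38.3 weeks (mutant 1), males of 25.6 weeks (mutants 2 and 3) and a female of 19.6 weeks (mutant 4). The numbers only name animals and pair none of them. Each value is a log2 expression value from 1 array of 1 animal, so a difference of 1 is a change of 2-fold. Levels of different genes cannot be compared on this scale, because each probe set binds with its own strength.

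The respiratory chain moves electrons from NADH through complex I, or from succinate through complex II, to coenzyme Q, and on through complex III and cytochrome c to complex IV, where oxygen is reduced. Complexes I, III and IV pump protons across the inner mitochondrial membrane, and complex V uses the returning protons to make ATP. Neurons draw most of their ATP from this route. A core of the subunits has counterparts in bacteria and carries the redox groups or the catalytic sites, and the many small accessory subunits surround it. Part of the core, including the catalytic subunits of complex IV, is encoded in mitochondrial DNA and lies outside the naming rule, so none of the complex IV genes here is counted as core. With this division 20 genes encode core subunits, 58 accessory subunits and 9 assembly factors.

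Over the whole series, array medians lay between 6.09 and 6.17, and the 12 control probe sets for bacterial genes that no mouse sample contains read 2.35 at the median and 3.72 at most. The mutated gene, Gusb, had 2 probe sets. The one with the higher mean did not separate the groups, with 5.77 ± 0.53 in normal and 5.93 ± 0.48 in mutant mice (SD, n = 4 each, exact permutation p = 0.657). The other gave 5.95 ± 0.48 and 4.55 ± 0.15, a difference of -1.40 ± 0.23 (SE), and all 4 mutants lay below all 4 normals. Its exact permutation p was 0.0286, and its limma p adjusted over the 20380 probe sets with 1 symbol was 0.130. In normal 1 the 3 prime minus 5 prime difference of control probe sets for actin and Gapdh, a measure of RNA integrity, was 3.58, against 0.222 to 0.752 on the other 7 arrays. The means of region markers also differed between animals. The mean of striatal markers lay between 7.56 and 10.1 in normal mice and between 6.24 and 7.77 in mutant mice, and that of choroid plexus markers reached 8.34 in mutant 1 and 7.38 in mutant 3 against 4.46 to 5.39 elsewhere. In bulk tissue, fewer cells of a type and less RNA per cell cannot be told apart.

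The respiratory chain genes were low in 1 animal, normal 4, the youngest mouse. In this mouse 70 of the 87 genes were lower than on all other 7 arrays (80.5%), against 22.4% of all genes. For 42 of the 87 (48.3%) normal 4 lay more than 1 log2 unit below every other array, against 2.17% of all genes. Those 42 were 15.6% of the 269 genes that were so low in normal 4. On none of the other 7 arrays was any of the 87 genes more than 1 unit below the rest. The median of the 87 genes in normal 4 was -1.35 from the median of the other 7 arrays, or 2.55-fold lower, while over all genes this median was -0.038. Normal 4 was the highest of the 8 arrays for 6 of the 87 genes, against 13.3% of all genes. Among the 4 normal mice alone, 13 of the 87 genes (14.9%) had normal 4 as a low value set apart by Dixon's criterion, against 1.32% of all genes.

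**Figure D1:**
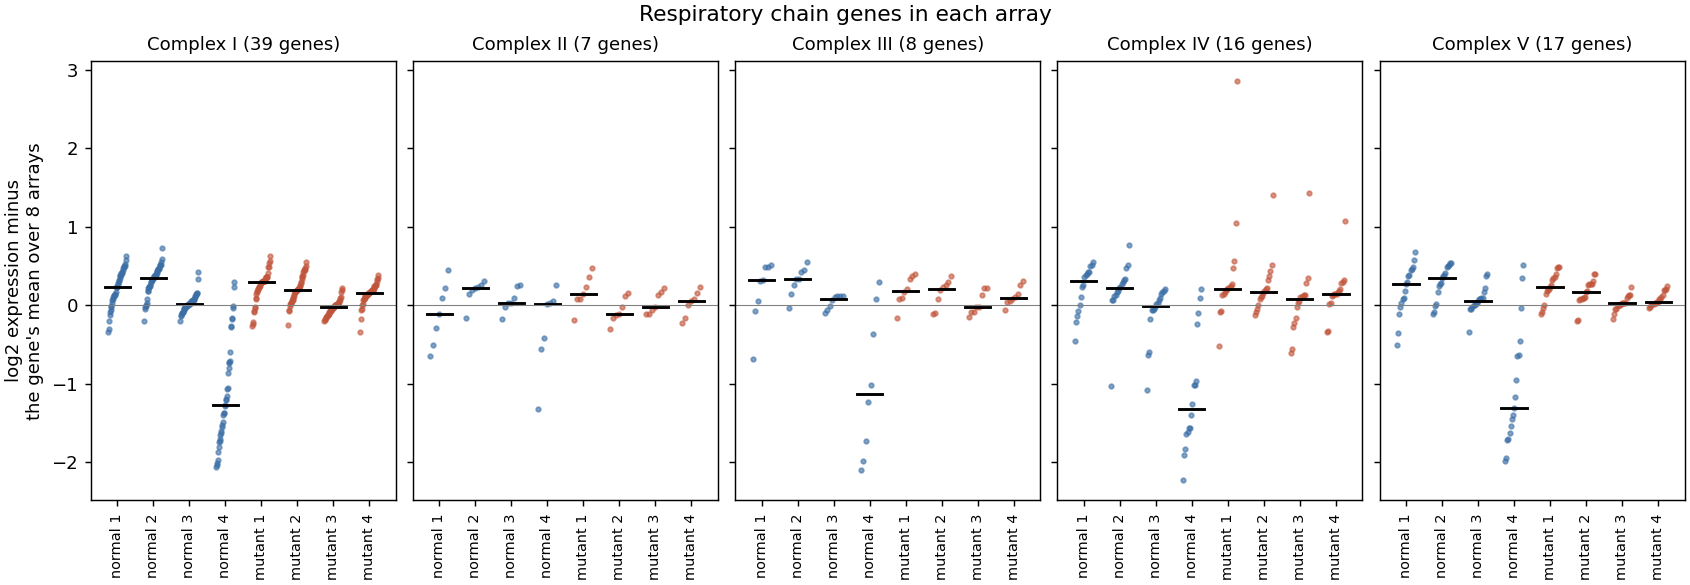
Each point is 1 respiratory chain gene on 1 array, plotted as its log2 expression minus its own mean over 8 arrays, with 1 panel per complex, normal mice in blue, mutant mice in red and black lines at the medians. The points of normal 4 spread down to about -2 in complexes I, III, IV and V, where the median difference from the other 7 arrays was -1.46, -1.28, -1.65 and -1.54, but not in complex II, where it was -0.010.

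The other 7 arrays lay close together. After each gene was set to its own mean, the median of the 87 genes was 0.23 in normal 1, 0.30 in normal 2, 0.03 in normal 3 and -1.20 in normal 4. In mutants 1 to 4 it was 0.23, 0.18, -0.003 and 0.14. The SD of these medians was 0.70 over the 4 normal mice, 0.14 without normal 4 and 0.10 over the 4 mutants. Normal 4 did not stand out in the RNA measure given above, at 0.222, which was the lowest of the 8 arrays. Among the marker lists, the neuronal mean of normal 4 was 10.4, within the range of 9.86 to 10.5 over all arrays, and 4 of 18 neuronal markers were lowest there. Other lists also differed in normal 4, some of them together with other arrays. Of 10 endothelial markers 8 were lowest in normal 4, where their mean was 6.24 against 6.67 to 6.97 on the other arrays. Of 10 pericyte markers 6 were lowest there. In normal 4 the median of the 13 microglial markers was -1.24 from the other arrays and 5 were lowest, and that of the 11 thalamic markers was -2.08 with 3 lowest. The median was 1.34 for the 8 striatal and 1.41 for the 3 measured CA1 markers, none of which was lowest there. These medians are taken against arrays that include the 4 mutants. The microglial mean was 7.38 in normal 4 and 7.42 in normal 1, against 8.40 to 8.78 in mutants. The thalamic mean was 6.85 in normal 4 and lower in mutant 3, at 6.42. The striatal mean of normal 4, 9.15, lay between those of normal 2, 7.56, and normal 1, 10.1. The part of these cell types and regions in the respiratory chain values was not tested. Its age, the lowest of the 8, and its identity as 1 animal cannot be told apart.

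Complex I, which oxidises NADH, followed this pattern in most of its accessory subunits. Of its 28 accessory genes, 27 were lowest in normal 4 and 22 were more than 1 unit below every other array. The most reduced genes named in this and the next paragraphs were picked after their values were seen. Ndufa5, an accessory subunit of the arm that holds the redox centres, was 10.25, 10.19, 9.91 and 7.72 in normals 1 to 4 and 10.11, 10.21, 9.76 and 9.89 in mutants 1 to 4. The values of 7 arrays spanned 9.76 to 10.25, and normal 4 alone lay apart, at -2.39 from their median. Ndufs5, another accessory subunit, was 10.91, 10.68, 10.16 and 8.28 in normals and 10.60, 10.83, 10.15 and 10.67 in mutants, again with only normal 4 apart. The 6 core genes of complex I moved less, with a median of -0.74 and none more than 1 unit below every other array. Ndufs1, which holds iron-sulfur clusters of the electron path, was 10.56 in normal 4, inside the range of 10.31 to 11.00 of the other 7 arrays. Among the core genes Ndufs8 and Ndufs7, which also bind iron-sulfur clusters, were lowest relative to the other arrays, at -1.35 and -1.29.

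Complex II is the smallest complex and the only one shared with the citric acid cycle. Its catalytic flavoprotein Sdha was 11.17, 10.80, 10.78 and 11.22 in normals and 10.77, 11.11, 10.84 and 10.96 in mutants, so normal 4 was the highest array. Its membrane anchors Sdhc and Sdhd were 9.29 and 10.18 in normal 4, inside the ranges of 8.63 to 9.75 and 10.00 to 10.35 of the other 7 arrays. Sdhb, the iron-sulfur subunit, was 10.84, 11.34, 11.38 and 10.71 in normals and 11.27, 11.01, 11.26 and 11.20 in mutants, with normal 4 lowest but normal 1 only slightly above it. Among its assembly factors, Sdhaf4 was 9.27, 9.12, 8.79 and 7.50 in normals against 8.87 to 9.05 in mutants, and normal 4 lay alone below the other 7 arrays. Sdhaf1 was 7.50 in normal 4 and 7.55 in normal 1, and the other 6 arrays were at 8.03 to 8.42. Sdhaf2, which helps to attach the flavin to Sdha, was 8.38 in normal 4, inside the range of 8.10 to 8.57 of the others.

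In complex III, which passes electrons from coenzyme Q to cytochrome c, the small subunits and the large ones went apart in normal 4. Uqcr11 was 10.90, 10.96, 10.53 and 8.31 in normals and 10.81, 10.64, 10.63 and 10.52 in mutants. Uqcr10 was 11.34, 11.27, 10.89 and 8.84 in normals and 11.20, 11.12, 10.95 and 10.97 in mutants. For both of these small subunits normal 4 was more than 1.5 units below all other arrays, which did not separate by genotype. Uqcrq and Uqcrb, also small subunits, were at -2.02 and -1.35 in normal 4 from the median of the others. Uqcrc2, a large subunit of the matrix side, was 11.40 in normal 4, above the range of 10.95 to 11.32 of the others. Its partner Uqcrc1 was 10.99 in normal 4 and lowest in normal 1, at 10.23, against 10.82 to 11.18 on the remaining arrays. Uqcrc1 was 1 of 4 genes that were lowest in normal 1, with Sdhc, Ndufa10 and Cox4i2. The part of the high 3 prime to 5 prime difference of that array in these values was not tested.

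Complex IV, cytochrome c oxidase, was represented by nuclear-encoded accessory subunits and Cox7a2l, a factor that joins complexes into larger assemblies. Of its 15 accessory genes 12 were lowest in normal 4. Cox6b1 was 11.77, 11.70, 11.41 and 9.48 in normals and 11.66, 11.82, 11.52 and 11.71 in mutants. Cox7a2 was 12.29, 12.20, 11.94 and 10.23 in normals and 12.08, 12.24, 11.98 and 12.01 in mutants. In both cases normal 4 was the single low array, while the other 7 were within 0.5 units of each other. Cox4i1, the ubiquitous form of the subunit to which ATP binds, was 11.21 in normal 4 against 12.18 to 12.48 on the others. Cox6a1, another ubiquitous form, was 12.03 in normal 4 against 13.10 to 13.20. Cox7c did not follow, with 7.08, 6.72, 6.64 and 6.75 in normals and 6.58, 6.78, 6.38 and 6.33 in mutants.

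In complex V the catalytic head was not low in normal 4, while most of the other subunits were. Atp5a1 and Atp5b encode the alpha and beta subunits that form the head. Atp5a1 was 12.63 in normal 4, the highest array, and between 11.93 and 12.12 on the other 7. Atp5b was 12.51 in normal 4 against 11.97 to 12.20 on the others. Atp5k, the membrane subunit e, was 11.44, 11.53, 11.16 and 9.05 in normals and 11.35, 11.39, 11.00 and 11.04 in mutants. All 8 accessory genes of complex V were lowest in normal 4, and 7 of them by more than 1 unit. The genes Atp5g1, Atp5g2 and Atp5g3 encode the same mature ring subunit, and in normal 4 they were at -1.90, -1.70 and -0.72 from the other arrays. Atp5o and Atp5h, of the stalk that holds the head still, were at -1.08 and -1.54. Atp5pb, of the same stalk, was not low: it was 11.40 in normal 4, inside the range of 11.38 to 11.51 of the other 7 arrays.

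Grouped by role over all complexes, the genes differed in how far normal 4 lay from the other arrays. The median was -1.74 for the 58 accessory genes (3.34-fold lower), -0.51 for the 20 core genes and -0.23 for the 9 assembly factors. Normal 4 was the lowest array for 52, 13 and 5 of these genes. These are counts in 1 animal and carry no test.

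**Figure D2:**
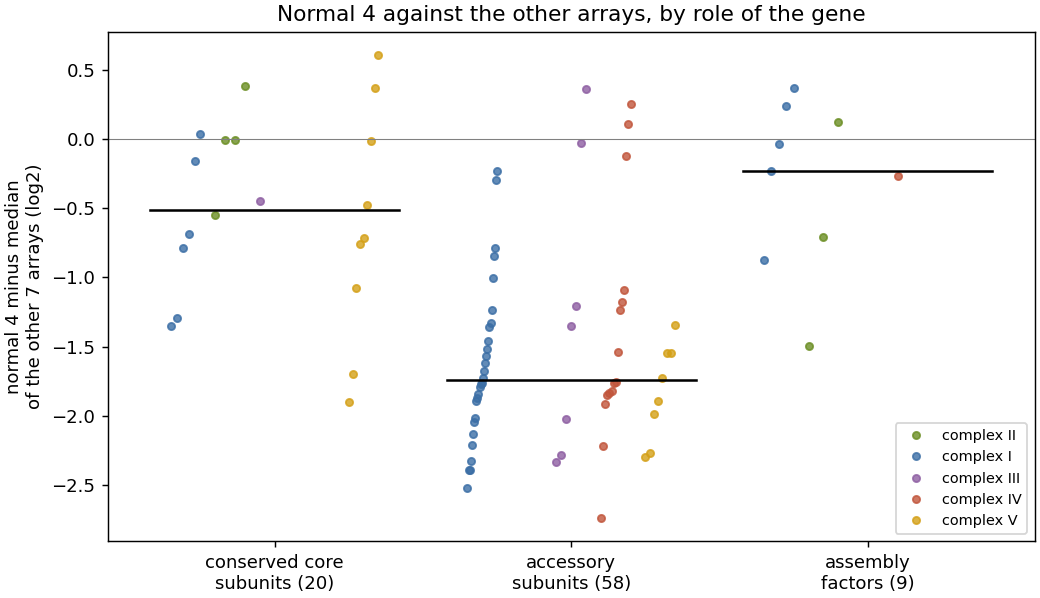
Each point is 1 gene, plotted as its log2 expression in normal 4 minus the median of the other 7 arrays, grouped by role and coloured by complex, with black lines at the medians of -0.51, -1.74 and -0.23. The core and assembly genes lie around and below 0, and most accessory genes lie below -1.

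The other probe sets of the same genes were read as well. Of the 46 genes with several probe sets, all probe sets were lowest in normal 4 for 25 genes, some for 12 and none for 9. Of the 73 probe sets that the rule left out, 51 were lowest in normal 4, with a median of -1.13 from the other arrays.

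Promoters of respiratory chain genes often hold sites for NRF1, a transcription factor that drives nuclear genes of mitochondrial proteins. RefSeq promoter windows on GRCm38.p6, from 250 bases before to 50 after the start site, were on hand for 73 of the 87 genes (78 windows). The NRF1 core GCGCANGC, read on both strands, was in 24 of the 78 windows (30.8%) and in 16.1% of the 12559 windows of all measured genes. Its stricter form GCGCATGC, contained in the first, was in 11 windows (14.1%) against 4.29%. The upstream stretches below show the match in capitals, 5′ to 3′ on the gene's strand, where it may read as the reverse complement. They come from 17 of the 23 genes with the NRF1 core, taken for a match that ends before the start site. The 17 need not be all genes with such a match. The first 3 were the lowest of these 17 in normal 4 relative to the other arrays, and the last 2 the highest. Genes outside the 17 were not ranked, among them Atp5a1, which was higher in normal 4, at 0.60.
Ndufa5, chr6:24527684-24527741, minus strand: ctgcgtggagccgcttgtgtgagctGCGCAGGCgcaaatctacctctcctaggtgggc
Ndufs5, chr4:123718252-123718309, minus strand: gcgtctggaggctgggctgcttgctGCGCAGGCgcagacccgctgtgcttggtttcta
Ndufa6, chr15:82354342-82354399, minus strand: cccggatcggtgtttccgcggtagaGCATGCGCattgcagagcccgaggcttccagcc
Ndufaf4, chr4:24897947-24898004, plus strand: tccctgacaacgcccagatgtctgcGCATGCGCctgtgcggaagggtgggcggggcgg
Sdha, chr13:74350241-74350275, minus strand: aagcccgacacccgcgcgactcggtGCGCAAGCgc

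The motif thus stood before Ndufa5, at -2.39 in normal 4 from the other arrays, and before Sdha, at 0.38. A match in these letters is not evidence of binding. The ETS core CCGGAAG, read by GABP among others, was in 20 windows (25.6%) against 14% of all windows, and the longer ACCGGAAGT, which overlaps it, in 1 (1.28%) against 1.61%. The YY1 core ATGGCGGC was in 7 windows (8.97%) against 3.71%,. The GC box GGGGCGGGG of Sp1-like factors was in 12 windows (15.4%) against 19%. Each of these was read on both strands.

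The study compared mutant with normal mice. None of the 87 respiratory chain genes passed adjusted p 0.05 in limma, against 0.105% of all 12393 genes (0.0968% higher and 0.00807% lower in mutants). The smallest adjusted p was 0.635, for Cox8b. At an unadjusted p of 0.05, Cox8b was higher and Ndufaf4 was lower, against 4.05% of all genes higher and 2.48% lower. For no gene did the 2 groups of values fail to overlap, against 3.88% of all genes.

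The means nevertheless lay to one side. In 73 of the 87 genes the mutant mean was above the normal mean, against 52.5% of all genes, and the median difference was 0.31, against 0.011 over all genes. The 95% confidence interval of a single gene reached 0.76 to either side of its difference (median over the genes). Without normal 4 the mutant mean was higher in 29 genes and lower in 58, against 50.1% of all genes higher, and the median difference was -0.039. The median half-width of the interval was then 0.34. No gene passed without normal 4 (smallest adjusted p = 0.852), against 0.0646% of all genes. At an unadjusted p of 0.05 Cox8b alone was higher, against 3.34% of all genes, and none was lower, against 2.47%.

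By complex, the median difference was 0.32 in complex I, 0.12 in complex II, 0.23 in complex III, 0.35 in complex IV and 0.33 in complex V. Without normal 4 these medians were -0.033, 0.001, -0.089, -0.0031 and -0.040. In complexes I, III, IV and V the median thus changed sign with that 1 animal. With the first 2 principal components of regional marker genes as covariates, the median over the 87 genes was -0.30, and all 5 complexes had a median below 0. The second component lay between -5.02 and -2.22 in mutants. It was -2.63 in normal 2 and between 4.27 and 7.51 in normals 1, 3 and 4. It thus largely followed genotype, and this fit can hardly tell the 2 apart. The median over the 87 genes was 0.18 with array weights and 0.57 without normals 1 and 3. The accessory genes of complex V show the shift most plainly: all 8 had a higher mutant mean with normal 4, and 7 of the 8 a lower one without it. In many single genes the difference shrank or changed sign without normal 4, but in some it grew slightly, as in Sdhc, from 0.19 to 0.23. Uqcr11 differed by 0.48 ± 0.53 (SE) with all 8 arrays and by -0.15 ± 0.14 without normal 4. Cox6b1 differed by 0.59 ± 0.46 and by 0.050 ± 0.13.

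**Figure D3:**
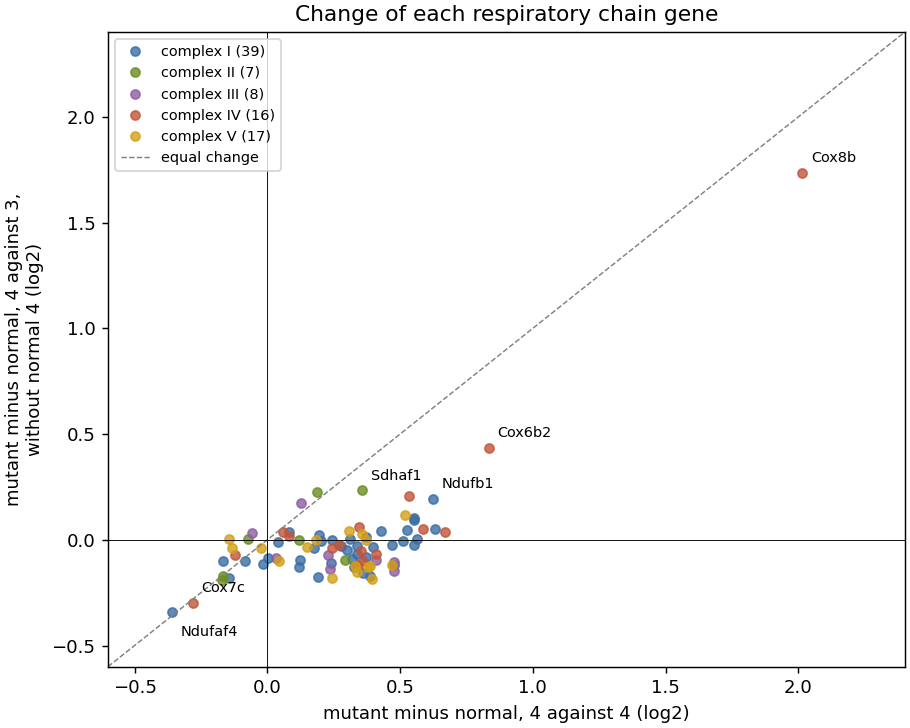
Each point is 1 respiratory chain gene, with the log2 difference of mutant minus normal over all 8 arrays on the horizontal axis and without normal 4 on the vertical axis, coloured by complex, and the dashed line marks equal differences. Most genes lie between 0.1 and 0.6 horizontally and near 0 vertically, and Ndufaf4 and Cox7c stay near the dashed line. Cox8b lies apart from the rest, below that line, at 2.01 horizontally and 1.74 vertically.

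Some genes had a difference of similar size with and without normal 4. Ndufaf4, an assembly factor of complex I, was 8.49, 8.42, 8.85 and 8.66 in normals and 8.21, 8.44, 8.24 and 8.08 in mutants. All but mutant 2 were below all normals. The difference was -0.36 ± 0.13 (SE, limma adjusted p = 0.685, exact permutation p = 0.0571), and -0.34 without normal 4. It was smaller with the mean of the gene's probe sets, at -0.26, and with the regional components as covariates, at -0.087. The other probe set of Ndufaf4 differed by -0.17, with mutant 2 the highest array. Sdhd was 10.25, 10.35, 10.19 and 10.18 in normals and 10.24, 10.00, 10.04 and 10.00 in mutants, a difference of -0.17 ± 0.10 (limma adjusted p = 0.861). Here 3 mutants lay below the normals, and mutant 1 lay among them. Cox7c differed by -0.28 ± 0.15 (limma adjusted p = 0.835) and Sdhaf2 by -0.17 ± 0.12 (limma adjusted p = 0.892), both with overlapping groups. Of the genes whose probe sets had the highest signal in complexes I, III, IV and V, Ndufa4 (now also placed in complex IV) differed by 0.34 ± 0.36, Uqcrb by 0.24 ± 0.33, Cox6a1 by 0.24 ± 0.25 and Atp5g3 by 0.15 ± 0.18. Without normal 4 these were -0.068, -0.14, -0.039 and -0.034.

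Several subunits of complex IV exist as a form made in most tissues and a form made in muscle, testis or lung, which are read here beside markers of neighbouring tissue. The largest difference of all 87 genes was in such a form, Cox8b, known from heart and skeletal muscle. It was 5.87, 4.92, 4.86 and 4.11 in normals and 8.80, 6.02, 7.37 and 5.61 in mutants. The difference was 2.01 ± 0.68 (SE, limma adjusted p = 0.635, exact permutation p = 0.0571), and it was 1.74 without normal 4. Mutants 1 and 3 were high, and mutant 4 was below normal 1. The mean of the 9 measured choroid plexus markers of 13 listed was 5.39, 5.38, 4.65 and 4.46 in normals and 8.34, 5.31, 7.38 and 5.31 in mutants. The same mutants 1 and 3 were high, and the other mutants lay within the normal range of that mean. The part of choroid plexus RNA in the Cox8b values was not tested. The ubiquitous partner Cox8a was 11.25, 12.18, 11.89 and 10.46 in normals and between 11.71 and 12.19 in mutants, with normals 1 and 4 low.

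Cox6a2, the muscle form of subunit 6a, was the gene with the largest deviation in normal 4 (-2.74). It was 8.36, 8.32, 7.64 and 5.58 in normals and 7.29, 9.22, 7.20 and 8.88 in mutants, with mutants 2 and 4 high and mutants 1 and 3 low. The mean of the 11 measured thalamic markers of 13 listed was 8.70, 9.15, 7.30 and 6.85 in normals and 8.05, 9.84, 6.42 and 9.76 in mutants, which was also highest in mutants 2 and 4. The part of thalamic tissue in the Cox6a2 values was not tested. The difference of Cox6a2 between groups was 0.67 ± 0.71 (SE, limma adjusted p = 0.926), and 0.037 without normal 4. Cox6b2, known from testis, was 6.44, 6.30, 5.44 and 4.47 in normals and 7.12, 6.23, 6.42 and 6.21 in mutants, a difference of 0.83 ± 0.43 (limma adjusted p = 0.815), and 0.44 without normal 4. Cox7a1, the muscle form of subunit 7a, was 5.54, 5.79, 4.43 and 3.63 in normals and 5.59, 5.54, 4.47 and 5.21 in mutants. In normal 4 its value lay within the range of the absent bacterial controls. Cox4i2, known from lung, stayed between 4.20 and 4.52 on all arrays, just above those controls.

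**Figure D4:**
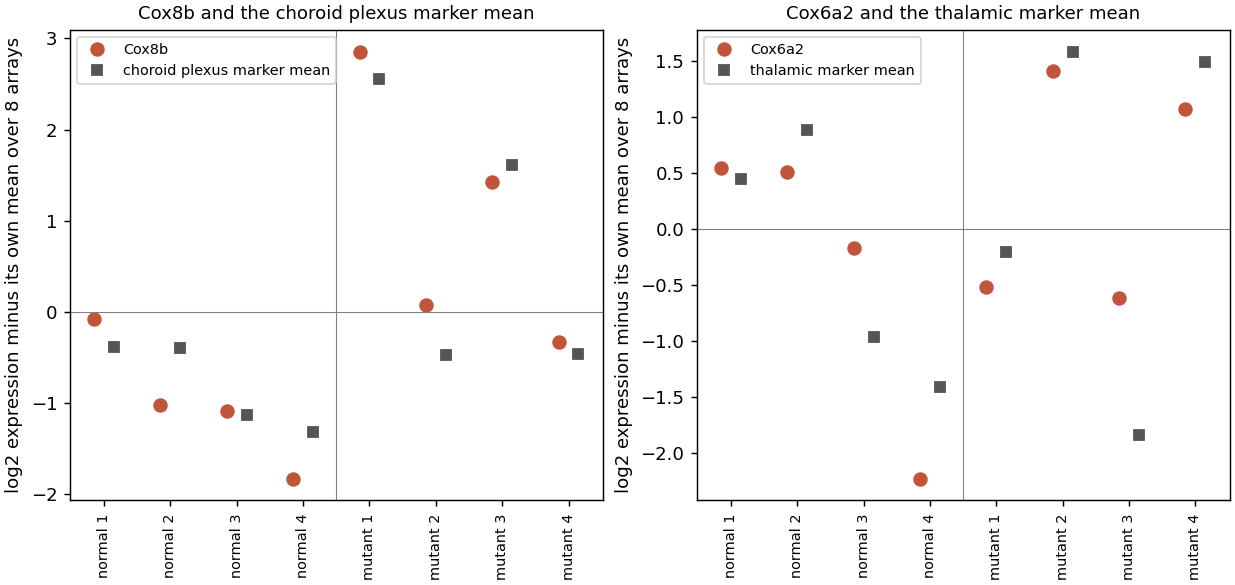
Circles show Cox8b (left) and Cox6a2 (right) and squares the mean of choroid plexus (left) and thalamic markers (right) on each of the 8 arrays, each as log2 expression minus its own mean over 8 arrays. Cox8b and the choroid plexus mean are both highest in mutants 1 and 3, and Cox6a2 and the thalamic mean are both highest in mutants 2 and 4.

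Other mitochondrial gene lists were set beside the subunits. No gene of any of these lists passed adjusted p 0.05 between mutant and normal mice in limma. The 46 measured genes of the mitochondrial ribosome, which translates the subunits encoded in mitochondrial DNA, were the nearest of these lists in normal 4. There 34 were lowest (73.9%), with a median of -0.66 from the other arrays, and 9 (19.6%) were more than 1 unit below every other array. In that list Mrps34 differed by 0.38 ± 0.22 and Mrpl3 by -0.24 ± 0.12 between mutants and normals. The 48 proteins of the cytosolic ribosome, a list added after the values were seen, had 38 genes lowest in normal 4 (79.2%) and a median of -0.89. For 19 of them (39.6%) normal 4 lay more than 1 unit below every other array. Over all genes these shares were 22.4% and 2.17%, and over the respiratory chain genes 80.5% and 48.3%. The cytosolic ribosomal genes with the smallest p were Rpl8, at 0.31 ± 0.19, and Rps10, at 0.50 ± 0.31. In both ribosomal lists the median difference between mutants and normals moved toward 0 without normal 4, from 0.16 to -0.025 and from 0.27 to 0.012.

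The remaining lists had medians nearer to 0 in normal 4. The 26 measured of 36 further assembly factors had a median of -0.27 there, and 15 of them (57.7%) were lowest in normal 4, 3 of these by more than 1 unit. Bcs1l, which inserts the Rieske protein into complex III, differed between mutants and normals by -0.31 ± 0.095 (limma adjusted p = 0.529). Acad9, an assembly factor of complex I, differed by -0.19 ± 0.12. The 4 genes of cytochromes c and c1 and their haem attachment had a median of -0.21 in normal 4, where 2 were lowest, and Hccs differed between the groups by -0.21 ± 0.15 and Cyct by 0.045 ± 0.11. The 18 enzymes of the citric acid cycle and pyruvate entry had a median of 0.008, with Idh2 at 0.27 ± 0.17 and Pdhb at -0.14 ± 0.096 between groups. Only 4 of these 18 enzymes were lowest in normal 4, which is 22.2% and near the 22.4% of all genes.

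The 29 carriers and import factors of the mitochondrion had a median of -0.020 in normal 4, where 5 were lowest. Slc25a14, an inner membrane carrier, differed between groups by -0.56 ± 0.15 (limma adjusted p = 0.443) and Slc25a22, a glutamate carrier, by 0.42 ± 0.24. The 18 regulators of mitochondrial biogenesis had a median of 0.10, with 2 lowest in normal 4. Their coactivator Ppargc1a differed between groups by -0.45 ± 0.24 and the deacetylase Sirt3 by 0.18 ± 0.10. The 13 mitophagy genes, of which 2 were lowest in normal 4, had a median of -0.13, with Gabarap at 0.63 ± 0.46 and Park7 at 0.31 ± 0.24 between groups. The 15 glycolytic genes had a median of 0.16, with 1 lowest in normal 4. Hk1, the main hexokinase of brain, differed between groups by 0.43 ± 0.14 (limma adjusted p = 0.635) and Pfkl by 0.30 ± 0.15.

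**Figure D5:**
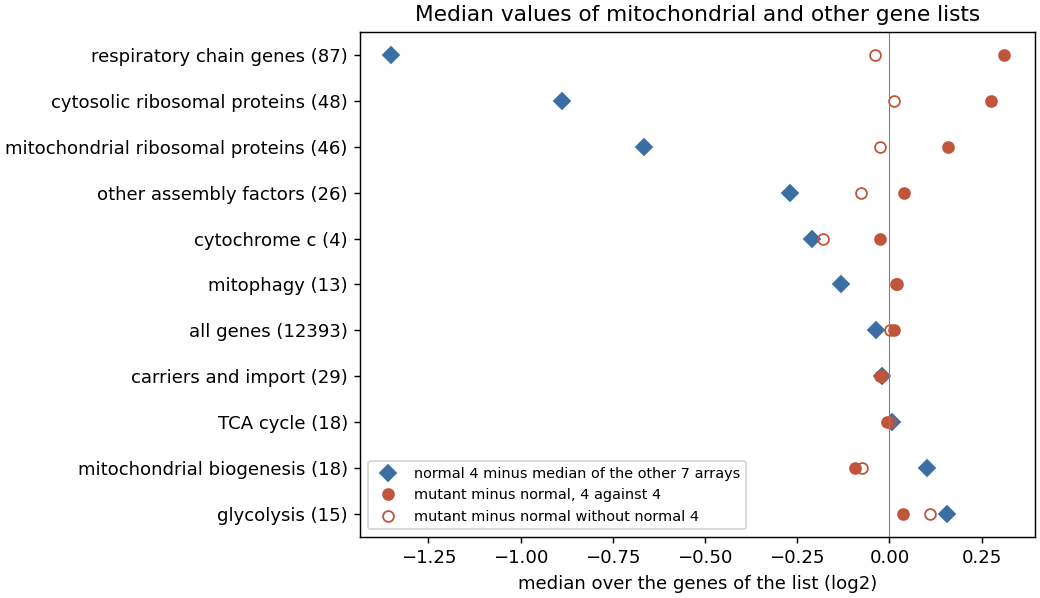
For each gene list, with its number of genes in brackets, diamonds show the median log2 difference of normal 4 from the other 7 arrays, filled circles the median of mutant minus normal over all 8 arrays and open circles the same without normal 4. The respiratory chain genes have the lowest diamond, at -1.35, followed by the cytosolic and mitochondrial ribosomal proteins at -0.89 and -0.66, and their open circles lie near 0.

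Each group held 2 females and 2 males. Between males and females, with genotype in the fit, none of the 87 genes passed adjusted p 0.05 in limma, against 0.0323% of all genes, and 0 passed an unadjusted p of 0.05, against 1.95%. The median of male minus female was 0.25, and -0.081 without normal 4. For the interaction of genotype and sex 0 of the 87 genes passed adjusted p 0.05 in limma, against 0.0% of all genes, and 8 were lower at an unadjusted p of 0.05, against 4.26% of all genes, while none was higher, against 7.19%. The lowest adjusted p with all 8 arrays was 0.340, shared by Atp5d, Cox8a and Sdhaf1. Atp5d, the delta subunit of the central stalk, had the smallest unadjusted p of these. It was 10.77, 11.66, 11.67 and 10.62 in normals and 11.60, 11.38, 11.10 and 11.38 in mutants, with both female normals low. On this probe set the difference of mutant minus normal was 0.79 in females and -0.42 in males. On the other probe set of Atp5d normal 1 was lowest, at 8.39, and normal 4 next, at 9.67. The remaining arrays were there at 10.13 to 10.84. The median interaction of the 87 genes was -0.69. It was 0.043 without normal 4 and -1.39 without normal 1, each of which leaves 1 female normal that is assumed to vary like the other groups. The female normal mice were normal 4 and normal 1, the array with the high 3 prime to 5 prime difference.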

How the data were processed

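Expression was measured on 1 Affymetrix mouse array per animal, with RNA prepared by TRIzol and an RNeasy kit for lipid tissue. The table deposited by the authors holds log2 values, 1 per probe set and array, made with RMA; GCOS 1.4 is also named, per the submitters' processing notes. A genome build for the probe sets is not given in the sources used here. Of 22690 probe sets, 64 were controls, 20380 had 1 gene symbol, 691 several and 1555 none. The identifiers of 20351 matched the RefSeq gene table, and all 160 probe sets of the respiratory chain did. A further 8 probe sets hold such a symbol among several and were not used.

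Groups were fitted over all 12393 genes with limma 3.58.1 in R 4.3.3 (lmFit, eBayes) and adjusted by Benjamini-Hochberg over all of them. The script was tested on simulated data. Exact permutation tests were two-sided over 70 arrangements, with a smallest possible p of 0.0286. Precision is limited by the number of arrays. No dim gene was removed. Named were, for complexes I, III, IV and V, the gene with the highest mean signal and the 3 with the smallest p, all of complex II, tissue forms of subunits, and the 2 genes with the smallest p of each other list; further genes named for their values were picked after these were seen. The genes, lists and motifs were chosen with earlier results of these data known. The alternatives were age, sex, array weights, other normalization, other probe set choices, regional marker components as covariates, and leaving out animals.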

Additional observations from a re-analysis of the deposited data

Results flagged for a closer look

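Among the 4 normal mice, 5 of the respiratory chain genes checked had 1 sample far from the others, and in each it was normal 4, the lowest. The gap from that sample to its nearest neighbour, as a share of the group's whole range, was 0.913 for Cox6a1, 0.889 for Atp5g3, 0.860 for Uqcrb, 0.843 for Cox6b1 and 0.841 for Uqcr11, all above the critical value of Dixon's test for 4 samples. In these genes normals 1 to 3 lay within 0.5 log2 units of each other. The check covered 72 groups of 4 arrays, and chance alone gives about 1 in 20. The groups share the same mice and many genes were low together in normal 4, so the flags are not independent. No group of mutant mice was singled out. Over all 87 genes, 13 (14.9%) had normal 4 as such a low sample among the normals, against 1.32% of all genes. The cause was not tested.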

How the results depend on the processing

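No respiratory chain gene passed adjusted p 0.05 under any of the 21 refits, with all animals or with 1 or more left out; the smallest adjusted p was 0.174, with array weights. The median difference over the 87 genes was above 0 in 21 of 23 alternatives and below 0 in the other two. Leaving out each animal in turn moved it between -0.039 and 0.45 over all genes of the chain, -0.033 and 0.47 in complex I, 0.001 and 0.22 in complex II, -0.089 and 0.38 in complex III, -0.0031 and 0.52 in complex IV and -0.040 and 0.51 in complex V, each lowest without normal 4. With the first 2 components of regional marker genes as covariates the median was -0.30 over all. By complex it was -0.33 in I, -0.20 in II, -0.37 in III, -0.22 in IV and -0.30 in V. The second component largely followed genotype, so this fit can hardly separate the 2, also for the single genes below. The cause was not tested. Without normals 1 and 3 the median was 0.57 over all, 0.65 in complex I, -0.030 in II, 0.51 in III, 0.64 in IV and 0.64 in V. With array weights it was 0.18 over all. The count of genes whose groups do not overlap, 0 with all arrays, was 2 with arrays centred on their median, 2 with quantile normalization applied again, 1 with the mean of probe sets, 1 without cross-hybridising probe sets, 2 without normals 1 and 3, and 0 to 3 when each animal was left out, where smaller groups overlap less. Of 623 values of the 30 named genes, 42 changed sign. With the regional components these were Ndufa4 -0.15, Ndufb1 -0.50, Ndufb2 -0.55, Uqcrb -0.33, Uqcr10 -0.51, Uqcrq -0.43, Uqcr11 -0.65, Cox6a1 -0.11, Cox6b2 -0.39, Atp5g3 -0.16, Atp5g2 -0.30, Atp5o -0.27, Atp5h -0.22, Sdha 0.19, Sdhaf1 -0.18, Sdhaf4 -0.42, Sdhb -0.19, Sdhc -0.20, Cox4i1 -0.058, Cox4i2 -0.23, Cox6b1 -0.19, Cox7a1 -0.90, Cox7a2 -0.31, Cox8a -0.36. Without each animal in turn the genes that changed sign without normal 4 ranged as follows: Ndufa4 -0.068 to 0.56, Uqcrb -0.14 to 0.39, Uqcr10 -0.11 to 0.73, Uqcrq -0.095 to 0.64, Uqcr11 -0.15 to 0.74, Cox6a1 -0.039 to 0.35, Atp5g3 -0.034 to 0.23, Atp5h -0.0020 to 0.56, Sdha -0.15 to 0.0042, Sdhaf4 -0.10 to 0.49, Cox7a1 -0.053 to 0.67, Cox7a2 -0.067 to 0.62. With array weights Sdha was 0.068 and Sdhb -0.051. Uqcrq was -0.014 with the mean of its probe sets and -0.21 without cross-hybridising probe sets. Without normals 1 and 3, Sdhc was -0.030 and Cox4i2 -0.0094. No paired analysis was possible because the labels give no replicate numbers, but some animals of both groups share an age: with the same age as a random block (correlation -0.239) the median was 0.39 over all and no gene passed. The median interaction of genotype and sex was between -1.39 (without normal 1, which leaves normal 4 as the only female normal) and 0.043 (without normal 4, which leaves normal 1); in both the lone animal is assumed to vary like the other groups. These refits, and the cytosolic ribosome list, were chosen after seeing the data. With 4 animals a group, a change of the median interval half-width, 0.76, or less could not be separated from 0 in a typical gene.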

Other observations

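The genes outside the respiratory chain whose values over the 8 arrays ran closest to the mean of its 87 centred genes were Mrpl23, Rps24, Romo1 and Mrps28, with Pearson r of 0.998 each. These are a mitochondrial ribosomal protein, a cytosolic ribosomal protein, a small protein of the inner mitochondrial membrane and a second mitochondrial ribosomal protein. Romo1 was 10.53, 10.67, 10.06 and 8.03 in normals and 10.74, 10.49, 10.11 and 10.36 in mutants, so normal 4 was again apart. Mrpl23 was 8.91, 8.95, 8.54 and 6.84 in normals and 8.91, 8.87, 8.56 and 8.74 in mutants. Over the 7 arrays without normal 4, r was 0.968 for Mrpl23, 0.967 for Rps24, 0.986 for Romo1 and 0.954 for Mrps28. The genes were picked for this likeness among all genes and the arrays share their normalization, so the correlations are a description.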
